A study of Mus musculus with 2 samples.

Results

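The cell cycle genes described here are 41 genes, chosen by symbol from a list written for this work, of the 27998 genes counted. They were held in 3 lists: 14 genes of DNA replication (the S-phase list), 22 genes of chromosome segregation and division (the mitotic list), and 5 genes that dividing cells raise but that other cells also use (the broad list). All 41 had UMIs in the cells of both libraries. The counts came from 2 mouse libraries of the only group the labels give, wild type (WT) by their titles: cells selected for CD11c from the tumour microenvironment of C57BL/6N mice carrying PyMT, the polyoma virus middle T antigen, an oncogene used to drive mammary tumours. There was no untreated, tumour-free or mutant group, so every comparison is between cell classes within these 2 libraries. The labels give no age and no promoter for the oncogene, and they do not say whether a library came from 1 animal or from several. The p-values therefore measure how far the differences between classes vary between 2 libraries, pooled over classes. That variation may be technical.

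A cell that commits to division passes a restriction point in G1, copies its DNA in S phase, and then condenses and separates its chromosomes in mitosis. E2F factors switch on the replication genes late in G1. The DREAM and B-MYB complexes act through CHR elements and CCAAT boxes on many genes of G2 and mitosis, which are therefore transcribed later. In tumours, conventional dendritic cells and monocyte-derived cells can still divide after they leave the marrow, whereas dendritic cells that mature and migrate are known for leaving the cycle.

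The promoters of 33 of the 41 genes were found in RefSeq (GRCm38.p6), 31 by symbol and 2 by gene ID. The 250 bases before each start were searched on both strands for CCAAT, for the CHR (TTTGAA or TTCGAA), and for an E2F match (TTCCCGC or TTCGCGC or TTGCCGC or TTGGCGC); an E2F match and a CCAAT match can overlap, as in H2afz. An E2F match stood in 7 of 12 S-phase promoters, 3 of 18 mitotic promoters and 1 of 3 broad promoters, against 7.89% of all 32851 promoters of this length. A CHR match stood in 2 of 12, 7 of 18 and 2 of 3, against 17.1% of all. A CCAAT match stood in 10 of 12, 17 of 18 and 3 of 3, against 33.8% of all. Below are the 120 bases before the start of 2 S-phase, 4 mitotic and 2 broad genes, 5′ to 3′ on the gene's strand, with the matches in capitals. These genes are examples and do not stand for their lists. The mitotic set holds genes found mostly in dividing cells (Top2a, Mki67, Ccnb2) and the one found least in them (Cks2). Both S-phase genes shown had an E2F match, whereas Tyms, Pcna and 2810417H13Rik, among others, had none. Birc5 had no match of any kind. A match is a description of letters, not a binding site.
Mcm6, helicase subunit, chr1:128359706-128359825, minus strand: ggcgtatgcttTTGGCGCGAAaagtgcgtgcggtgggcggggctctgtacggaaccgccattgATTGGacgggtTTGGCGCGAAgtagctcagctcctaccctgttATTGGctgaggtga
Rrm1, ribonucleotide reductase, chr7:102441575-102441694, plus strand: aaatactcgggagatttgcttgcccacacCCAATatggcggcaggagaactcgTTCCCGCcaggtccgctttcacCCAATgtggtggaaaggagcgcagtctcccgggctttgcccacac
Top2a, topoisomerase, chr11:99024190-99024309, minus strand: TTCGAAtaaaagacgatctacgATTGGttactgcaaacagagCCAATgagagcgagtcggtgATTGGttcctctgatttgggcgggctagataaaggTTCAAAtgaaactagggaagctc
Mki67, the Ki-67 protein, chr7:135716380-135716499, minus strand: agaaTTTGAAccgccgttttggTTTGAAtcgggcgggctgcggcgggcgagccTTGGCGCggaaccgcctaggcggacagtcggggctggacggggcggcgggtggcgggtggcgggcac
Ccnb2, cyclin B2, chr9:70421555-70421674, minus strand: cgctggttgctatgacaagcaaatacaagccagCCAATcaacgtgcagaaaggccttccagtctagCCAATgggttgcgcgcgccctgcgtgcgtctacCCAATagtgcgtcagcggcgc
Cks2, a CDK-binding subunit, chr13:51645112-51645231, plus strand: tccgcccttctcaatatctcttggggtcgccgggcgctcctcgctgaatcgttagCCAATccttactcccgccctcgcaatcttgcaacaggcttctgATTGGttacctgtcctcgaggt
H2afz, histone variant H2A.Z, chr3:137864367-137864486, plus strand: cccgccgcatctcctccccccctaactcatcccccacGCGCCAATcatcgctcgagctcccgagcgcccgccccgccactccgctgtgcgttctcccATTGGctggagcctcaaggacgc
Hmgb2, a DNA-bending protein, chr8:57511723-57511842, plus strand: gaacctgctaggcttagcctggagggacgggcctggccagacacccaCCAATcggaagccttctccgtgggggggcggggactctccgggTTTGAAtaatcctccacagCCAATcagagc
Mcm6 held E2F matches that began 109, 106, 46 and 43 bases before its start, and Rrm1 held 1 at 67 bases. Top2a held CHR matches at 179, 140, 120 and 23 bases and Mki67 at 116 and 98. In Ccnb2 the only CHR match lay outside the stretch shown, at 167 bases. Cks2 had 2 CCAAT matches, at 65 and 22 bases, and no CHR match in its window.

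Of the barcodes, 1900 in replicate 1 and 1216 in replicate 2 were kept as cells, with medians of 5659.5 and 7141.5 UMIs (unique molecular identifiers, each standing for 1 captured RNA molecule) and totals of 17369071 and 13317214 UMIs in all barcodes. Classes were assigned from marker genes, none of them among the 41, and carry the ending "-like"; 660 of 3116 cells (21.2%) had no class. A UMI of Itgax, which encodes CD11c, was found in 34.3% and 43.3% of cells, and of Ptprc, the leukocyte marker CD45, in 70.3% and 75.7%. Epithelial-, fibroblast- and lymphocyte-like cells stood beside the myeloid cells the labels name. Endothelial-, B cell-, neutrophil- and pDC-like cells, at most 14 in a library, were not tested, and the rankings below leave them out. The libraries shared 2 cell barcodes. A level below is in counts per 1000000 (CPM): the gene's UMIs per 1000000 UMIs of a class in a library, replicate 1 and then replicate 2, and a list's level is per 10000 UMIs. These 3′ counts carry no division by gene length, so levels are compared between classes and not between genes.

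Of the tested classes, lymphocyte-like and cDC1-like cells had the highest levels of the S-phase list. In cDC1-like cells, the cross-presenting dendritic lineage, it held 5.64 and 5.80 per 10000 UMIs (mean 5.72 ± 0.117, SD, n = 2), and in lymphocyte-like cells 4.90 and 8.17 (6.54 ± 2.31). These classes overlapped. Monocyte-like cells followed at 3.28 and 3.46, C1q-high macrophage-like cells at 2.89 and 2.55, cDC2-like cells at 2.62 and 2.77, and Spp1 Gpnmb macrophage-like cells at 2.45 and 2.67. The values of the last 3 overlapped. Folr2 macrophage-like cells (2.13 and 3.88), Ccr2 Fcgr4 macrophage-like cells (2.71 and 1.55) and mature DC-like cells (2.71 and 0.826) differed most between libraries for their level. Epithelial-like cells held 2.06 and 1.75 and fibroblast-like cells 0.844 and 0.634. Barcodes of at most 50 UMIs, which stand for free RNA, held 2.80 and 2.77 per 10000. The C1q-high, cDC2-like and Spp1 Gpnmb levels were close to that value. Judged by epithelial marker genes, free RNA made up at most 0.931% to 1.91% of the UMIs of the tested classes other than epithelial-like cells, except fibroblast-like cells of replicate 1 (19.4%). Its part in the levels was not tested.

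The mitotic list placed monocyte-like cells beside cDC1-like cells. It held 6.92 and 8.14 per 10000 UMIs in cDC1-like cells (7.53 ± 0.866, SD, n = 2), 7.59 and 7.70 in monocyte-like cells (7.64 ± 0.0796) and 6.35 and 6.65 in lymphocyte-like cells (6.50 ± 0.206). The first 2 could not be ordered, since the monocyte-like values lay between the cDC1-like ones. cDC2-like cells held 5.08 and 5.48, C1q-high cells 4.85 and 3.60, Spp1 Gpnmb cells 3.09 and 3.74, Ccr2 Fcgr4 cells 3.61 and 2.51, Folr2 cells 1.99 and 2.37 and mature DC-like cells 3.34 and 1.30. Free RNA held 5.26 and 5.23. The list's sum leans on 2 genes: of its 10380 UMIs, 22.4% were Cks2 and 19.1% Cenpa. In 13 neutrophil-like cells of replicate 2, a class that does not divide, the list stood at 7.19, and at 0.327 without those genes, a single UMI. Without Cks2 and Cenpa (a list chosen after the values were seen) cDC1-like cells held 5.004 and 6.34, monocyte-like cells 5.01 and 5.43, lymphocyte-like cells 3.27 and 4.04, cDC2-like cells 2.49 and 3.41, C1q-high cells 2.50 and 1.86 and mature DC-like cells 1.97 and 0.435. The ratio of cDC1-like to C1q-high cells went from 1.78 with both genes to 2.60 without them. For the S-phase list that ratio was 2.10.

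**Figure D1:**
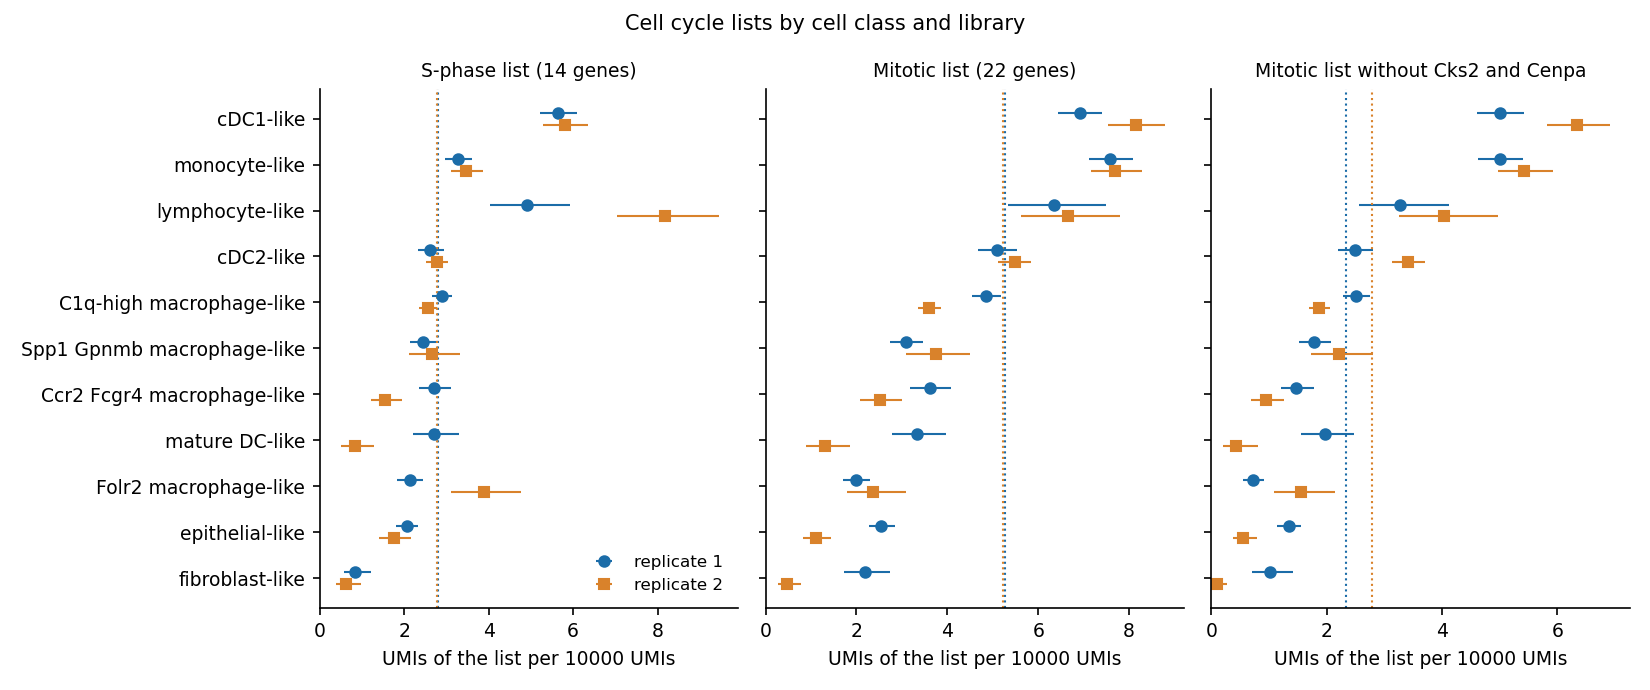
UMIs per 10000 UMIs of the S-phase list, the mitotic list, and the mitotic list without Cks2 and Cenpa, for each cell class; a point is a library, bars are exact Poisson 95% intervals (counting error only), and dotted lines mark free RNA in barcodes of at most 50 UMIs. cDC1-like cells lie at 5.64 and 5.80 for S phase, and monocyte-like cells stand beside them for the mitotic list, at 7.59 and 7.70.

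Among the replication genes, the MCM helicase subunits did not share a pattern across classes. Mcm5 was at 35.5 and 33.8 CPM in cDC1-like cells, 22.7 and 44.9 in lymphocyte-like cells, and less in cDC2-like (14.1 and 14.2) and C1q-high cells (13.4 and 10.6). Mcm6 was at 68.1 and 76.3 in lymphocyte-like cells, above every other tested class, with 38.1 and 35.0 in cDC1-like and 14.1 and 9.90 in cDC2-like cells. Mcm4 was lower in cDC1-like cells (10.4 and 10.9) than in cDC2-like (15.9 and 14.8) or monocyte-like cells (17.9 and 19.9). Against cDC2-like cells that is opposite to the other subunits. The difference did not pass the test described below (log2 fold change -0.58, SE 0.41, edgeR adjusted p = 0.46). Mcm3 was nearly level between cDC1-like (31.2 and 35.0), monocyte-like (25.6 and 26.2) and C1q-high cells (26.2 and 23.6). Among tested classes the means of Mcm2 and Mcm7 were highest in lymphocyte-like and cDC1-like cells, respectively, though the few endothelial-like and B cell-like cells stood higher.

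The enzymes that make DNA precursors separated the classes further. Rrm2, the small subunit of ribonucleotide reductase that is made in S phase, was at 48.5 and 32.6 CPM in cDC1-like cells and 31.8 and 76.3 in lymphocyte-like cells. It was at 10.3 and 10.5 in cDC2-like, 13.98 and 12.6 in monocyte-like and 7.49 and 7.87 in C1q-high cells. Both high classes lay above the last 3 in each library. Rrm1, its large subunit, which is more stable through the cycle, spread less, with 21.6 and 27.7 in cDC1-like and 21.9 and 15.3 in C1q-high cells. Tyms, thymidylate synthase, was at 39.0 and 36.2 in cDC1-like, 40.9 and 80.8 in lymphocyte-like, 15.0 and 18.6 in cDC2-like and 15.0 and 14.8 in C1q-high cells. 2810417H13Rik, named Pclaf in GENCODE, encodes a partner of the sliding clamp PCNA. It was at 135 and 164 in cDC1-like cells, 61.3 and 66.9 in monocyte-like, 48.8 and 68.6 in cDC2-like and 33.7 and 21.3 in C1q-high cells. In lymphocyte-like cells the libraries disagreed, at 45.4 and 139. Pcna itself was flat by comparison, at 97.0 and 91.7 in cDC1-like, 92.1 and 85.1 in C1q-high and 64.7 and 73.6 in cDC2-like cells, with 150 and 162 in lymphocyte-like cells. Pcna made up 26.5% of the list's UMIs and 2810417H13Rik 16.5%. Gins2, a helicase subunit, was at 25.1 and 28.9 in cDC1-like and 8.44 and 12.99 in cDC2-like cells. Hells, a chromatin remodeller, was at 15.6 and 19.3 in cDC1-like and 4.82 and 6.94 in C1q-high cells. Uhrf1, which maintains DNA methylation, was at 17.3 and 6.03 in cDC1-like cells and could not be ranked. By mean over the tested classes, 7 of the 14 S-phase genes were highest in lymphocyte-like cells, 5 in cDC1-like cells, Mcm4 in monocyte-like cells and Uhrf1 in Folr2 cells.

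The cyclins and the kinase they drive ran high in cDC1-like and monocyte-like cells. Ccnb2 was at 44.1 and 47.0 CPM in cDC1-like and 52.0 and 63.8 in monocyte-like cells, against 15.0 and 29.1 in cDC2-like and 26.8 and 10.6 in C1q-high cells. Ccna2, cyclin A2, was at 17.3 and 25.3 in cDC1-like cells, 13.98 and 10.5 in monocyte-like cells and 4.82 and 0.925 in C1q-high cells. Cdk1, their catalytic partner, was at 35.5 and 21.7 in cDC1-like, 24.1 and 30.3 in monocyte-like and 4.69 and 9.28 in cDC2-like cells. Ccnb1, cyclin B1, also had its highest mean in monocyte-like cells and the next in cDC1-like cells, but both overlapped with C1q-high cells. It was at 11.6 and 11.5 in monocyte-like, 6.06 and 16.9 in cDC1-like and 13.9 and 6.02 in C1q-high cells. In cDC2-like cells it was at 0.938 and 4.33, and it had 121 UMIs in all. Ube2c, the ubiquitin-conjugating enzyme of the anaphase-promoting complex, stood at 118 and 116 in monocyte-like cells, above 53.7 and 85.6 in cDC1-like, 39.4 and 60.6 in cDC2-like and 20.3 and 24.1 in C1q-high cells. The monocyte-like values lay above those of every other tested class in both libraries.

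The chromosomal passenger proteins Birc5 and Cdca8 and the kinase Aurkb work as a complex at centromeres. Birc5 was at 74.4 and 95.3 in cDC1-like, 76.9 and 65.9 in monocyte-like, 43.2 and 52.0 in cDC2-like and 38.0 and 30.5 in C1q-high cells. Cdca8 was at 37.3 and 38.7 in monocyte-like and 31.2 and 28.9 in cDC1-like cells, against 16.1 and 12.03 in C1q-high cells. Aurkb was at 6.93 and 14.5 in cDC1-like cells and overlapped with most classes. Of the kinetochore genes, Spc24 was at 38.1 and 54.3 in cDC1-like and 10.2 and 13.9 in C1q-high cells, and at 4.54 and 71.8 in lymphocyte-like cells, where the libraries disagreed. Cenpa, the centromeric histone, was at 115 and 117 in cDC1-like, 130 and 118 in monocyte-like, 98.5 and 133 in cDC2-like and 89.9 and 81.0 in C1q-high cells. Cenpe and Cenpf were low throughout, and Cenpf had no UMI in 221 Folr2 cells.

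Top2a, which untangles sister chromatids, was at 45.9 and 56.7 in cDC1-like, 54.5 and 53.9 in lymphocyte-like, 25.3 and 32.2 in cDC2-like, 26.4 and 29.3 in monocyte-like and 19.3 and 11.1 in C1q-high cells. Its levels in cDC1-like and lymphocyte-like cells overlapped and lay above the other 3. Mki67, the proliferation marker Ki-67, was at 28.6 and 25.3 in cDC1-like, 19.7 and 20.4 in cDC2-like and 12.8 and 14.3 in C1q-high cells. Its highest mean was in mature DC-like cells, at 47.4 and 17.4 (32.4 ± 21.2, SD, n = 2), where most other mitotic genes were low. Cdca3 was at 40.7 and 60.3 in cDC1-like and 19.8 and 11.1 in C1q-high cells, and Smc2, a condensin subunit, at 28.6 and 35.0 and at 15.0 and 12.96. Cks2 ran the other way, with 145 and 93.0 in C1q-high, 161 and 74.2 in cDC2-like and 76.2 and 62.7 in cDC1-like cells. Aurka, Bub1, Plk1 and Kif11, the mitotic kinases and a spindle motor, had only 61, 65, 38 and 66 UMIs in all cells. These 4 did not pass the filter on low counts and were not tested. By mean over the tested classes, 10 of the 22 mitotic genes were highest in cDC1-like cells, 6 in lymphocyte-like, 4 in monocyte-like, Mki67 in mature DC-like and Aurkb in Folr2 cells.

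The broad list was led by cDC1-like cells in both libraries. It held 58.7 and 70.8 per 10000 UMIs in cDC1-like cells, 33.5 and 34.9 in cDC2-like, 36.9 and 29.6 in mature DC-like, 35.6 and 27.7 in lymphocyte-like, 25.1 and 20.8 in monocyte-like and 20.1 and 15.2 in C1q-high cells, with 23.5 and 28.2 in free RNA. H2afz alone made up 78.0% of its UMIs. H2afz was at 4632 and 5693 CPM in cDC1-like cells, 3167 and 2618 in mature DC-like, 2803 and 2923 in cDC2-like and 1473 and 1187 in C1q-high cells. All 3 dendritic classes lay above the macrophage-like ones. Stmn1, which destabilises microtubules, was at 310 and 306 in cDC1-like cells and 309 and 391 in lymphocyte-like cells, 143 and 204 in cDC2-like, 101 and 107 in C1q-high and 86.9 and 13.05 in mature DC-like cells. Hmgb2 was at 712 and 818 in cDC1-like and 840 and 777 in lymphocyte-like cells, against 294 and 251 in cDC2-like cells. H2afx, the histone that marks DNA breaks when phosphorylated, was at 86.6 and 148 in cDC1-like and 31.0 and 21.3 in C1q-high cells. Cks1b, the sister of Cks2 and a cofactor in the degradation of p27, was at 129 and 118 in cDC1-like cells and 41.2 and 29.2 in C1q-high cells, opposite in order to Cks2.

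The genes differed in how far their UMIs were gathered in a few cells. Cells with at least 10 UMIs of mitotic genes other than the gene in question held about 10.4% and 11.5% of all UMIs (108 and 78 cells for an S-phase gene). They held a median of 78.5% of a mitotic gene's UMIs, with a range of 22.6% to 94.2% over 22 genes, and 39.3% of an S-phase gene's (21.2% to 82.1% over 14). Ccnb1 (94.2%), Ccna2 (92.6%), Kif11 (90.9%), Bub1 and Birc5 (87.7% each), Ube2c (87.6%) and Cdca3 (86.0%) led. Top2a reached 73.1% and Mki67 66.9%. Among S-phase genes 2810417H13Rik (82.1%) and Rrm2 (79.1%) were gathered like mitotic genes. The clamp and helicase genes were not: Pcna was at 21.2%, Mcm4 at 23.5%, Mcm2 at 25.6%, Mcm6 at 26.2% and Mcm3 at 27.8%. Cks2 (22.6%) and Cenpa (31.2%) were the least gathered mitotic genes. Of the broad list, Stmn1 was at 70.3%, Hmgb2 at 44.8% and H2afz at 25.2%. These shares are in cells chosen by mitotic genes, so cells with few mitotic UMIs are left out whatever their S-phase UMIs. Cells high for S-phase genes instead held a median of 47.6% of an S-phase gene's UMIs (20.8% to 83.6%). They held a median of 55.5% of a mitotic gene's UMIs.

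**Figure D2:**
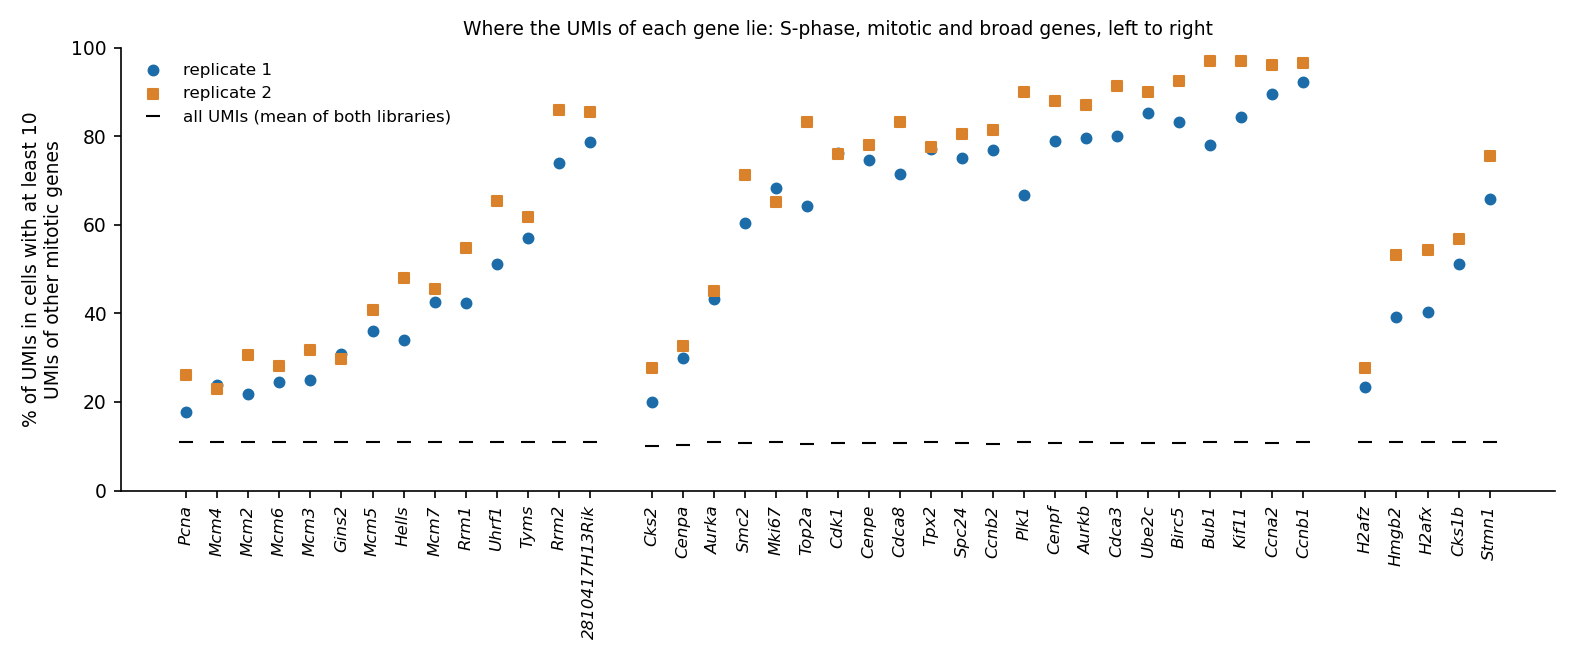
Percent of each gene's UMIs found in cells with at least 10 UMIs of the other mitotic genes, by list; dashes mark the share of all UMIs those cells held. Ccnb1 (94.2%) and Ccna2 (92.6%) stand at the top, 2810417H13Rik (82.1%) and Rrm2 (79.1%) lead the S-phase genes, and Pcna (21.2%), Cks2 (22.6%) and H2afz (25.2%) lie lowest in their own lists.

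Each cell was then placed by both lists. A cell was called high for S phase with at least 10 UMIs of the 13 S-phase genes other than Pcna, and high for mitosis with at least 10 UMIs of the 20 mitotic genes other than Cks2 and Cenpa; both thresholds were set after the values were seen. In replicate 1, 116 of 1900 cells (6.11%) were high for either, 29 for S phase only, 43 for both and 44 for mitosis only. In replicate 2, 90 of 1216 cells (7.40%) were high, 23 for S phase only, 44 for both and 23 for mitosis only. Cells high for mitosis held 74.4% and 83.8% of the UMIs of those 20 genes. The high cells were deeper, with medians of 11547 and 12686 UMIs against 5461 and 6854 for the rest. Within 2 UMIs of the threshold lay 28 and 14 cells for mitosis and 38 and 30 for S phase, so the classes of cells are ranges and not types.

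Of cDC1-like cells, 28 of 125 (22.4%, exact binomial 95% interval 15.4% to 30.7%) and 17 of 74 (23.0%, 13.99% to 34.2%) were high. In replicate 1, 11 were high for S phase only, 9 for both and 8 for mitosis only; in replicate 2 these were 4, 10 and 3. Of monocyte-like cells 17 of 185 (9.19%) and 14 of 98 (14.3%) were high, with 1 and 4 for S phase only and 8 and 3 for mitosis only. Of cDC2-like cells 11 of 175 (6.29%) and 18 of 198 (9.09%) were high, with 2 and 1 for S phase only and 6 and 8 for mitosis only. Of C1q-high cells 16 of 306 (5.23%) and 11 of 280 (3.93%) were high. Both cDC1-like shares lay above both shares of each of these 3 classes. Lymphocyte-like cells had 3 of 45 and 6 of 46, epithelial-like cells 7 of 103 and 2 of 42, Folr2 cells 3 of 178 and 2 of 43, Ccr2 Fcgr4 cells 5 of 131 and 1 of 82, and Spp1 Gpnmb cells 3 of 117 and 1 of 34. Mature DC-like cells had 3 of 55 and 0 of 32; the latter allows a share of up to 10.9% by the exact interval. Those 3 cells held 86.7% of the class's UMIs of the 20 mitotic genes in replicate 1, and their median depth was 18841 UMIs against 5886 for the rest of the class. The intervals cover counting error only.

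**Figure D3:**
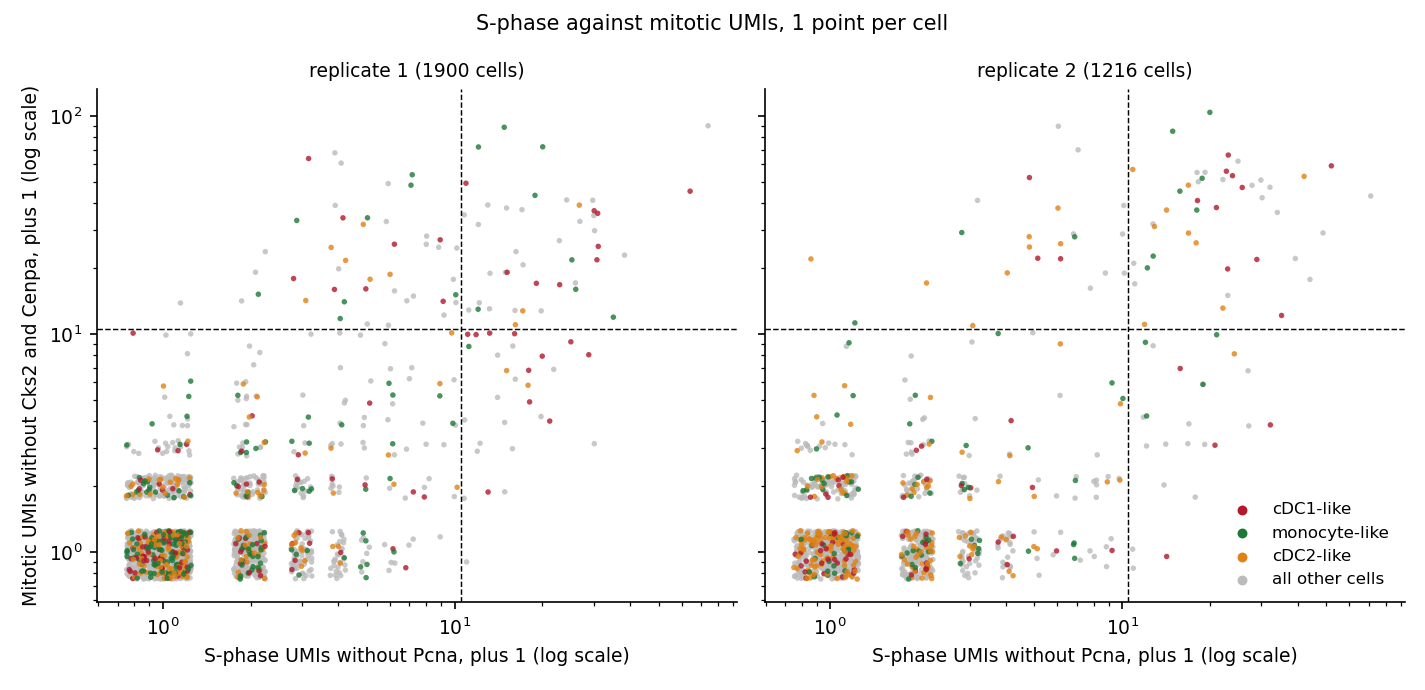
UMIs plus 1 of the S-phase list without Pcna (x axis) and of the mitotic list without Cks2 and Cenpa (y axis) in each cell, both on log axes, with dashed lines at the threshold of 10 UMIs; a point is a cell, with cDC1-like, monocyte-like and cDC2-like cells coloured and all others grey. Most cells lie under both lines, and 116 and 90 cells lie past at least 1 of them.

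Depth was then made equal by thinning each cell to 1900 UMIs. At least 3 mitotic UMIs remained in 16.8% (21 of 125) and 14.9% (11 of 74) of cDC1-like cells, 10.8% and 10.2% of monocyte-like, 10.3% and 10.1% of cDC2-like, 8.89% and 13.04% of lymphocyte-like, and 8.17% and 2.50% of C1q-high cells. In mature DC-like cells it was 1 of 55 (1.82%) and 0 of 32. In 13 neutrophil-like cells, which should lack these genes, it was 2 (15.4%), and 0 without Cks2 and Cenpa. Without thinning the cDC1-like shares were 42.4% and 36.5% and the mature DC-like ones 18.2% and 9.38%, at median depths of 8266 and 10841 against 6076 and 7392 UMIs. For S phase, thinned shares were 14.4% and 13.5% in cDC1-like cells, 8.89% and 10.9% in lymphocyte-like, 5.14% and 3.03% in cDC2-like, 3.24% and 5.10% in monocyte-like and 3.59% and 3.21% in C1q-high cells. No neutrophil-like cell had 3 S-phase UMIs, which allows a share of up to 24.7% by the exact interval. The monocyte-like shares were close to the cDC2-like ones for mitosis, and for S phase they overlapped with both cDC2-like and C1q-high shares.

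Within the cells high for mitosis, some classes still differed. These were 17 and 13 cDC1-like, 12 and 6 C1q-high, 16 and 10 monocyte-like and 9 and 17 cDC2-like cells, and no test was run on them. Cks2, not used to choose them, was at 111 and 130 CPM in the cDC1-like ones and at 435 and 467 in the C1q-high ones, with 335 and 472 in the monocyte-like ones. H2afz, also not used, was at 7033 and 8900 in cDC1-like, 4825 and 4709 in cDC2-like, 3447 and 4738 in C1q-high and 3702 and 3070 in monocyte-like cells. Hmgb2 was at 1710 and 2414 in cDC1-like and 694 and 743 in monocyte-like cells. Stmn1 was alike in cDC1-like (1025 and 1122) and cDC2-like cells (1007 and 1103). 2810417H13Rik was at 476 and 576 in cDC1-like, 405 and 368 in cDC2-like, 401 and 428 in C1q-high and 317 and 312 in monocyte-like cells. In both libraries cDC1-like cells had the lowest Cks2 level of these 4 classes, in the cells high for mitosis as well as over all cells.

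In cells under both thresholds the broad genes parted. H2afz remained at 3867 and 4657 CPM in cDC1-like cells, 2923 and 2618 in mature DC-like, 2597 and 2588 in cDC2-like, 1327 and 1035 in C1q-high and 518 and 447 in epithelial-like cells. By mean, these classes kept the order they had over all cells. Stmn1 stood at 32.7 and 17.5 in cDC1-like cells, against 310 and 306 over all cDC1-like cells. Top2a is one of the genes the mitotic threshold counts, so its low level there (2.52 and 0 in cDC1-like, 6.98 and 1.49 in C1q-high cells) follows from the choice of cells. Cks2, Pcna and the broad genes were not used. Cks2 kept 126 and 80.6 in C1q-high, 140 and 114 in lymphocyte-like and 60.4 and 31.5 in cDC1-like cells. Pcna was at 52.8 and 48.9 in cDC1-like cells and 91.8 and 75.6 in C1q-high cells. Over all cells the order was the reverse, but that difference did not pass (0.16, SE 0.21). The thresholds are UMI counts, and cDC1-like cells were deeper, with medians of 8266 and 10841 UMIs against 5502 and 7209.5 in C1q-high cells. The thresholds thus reach further down in cDC1-like cells, and the part of depth in these levels was not tested.

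**Figure D4:**
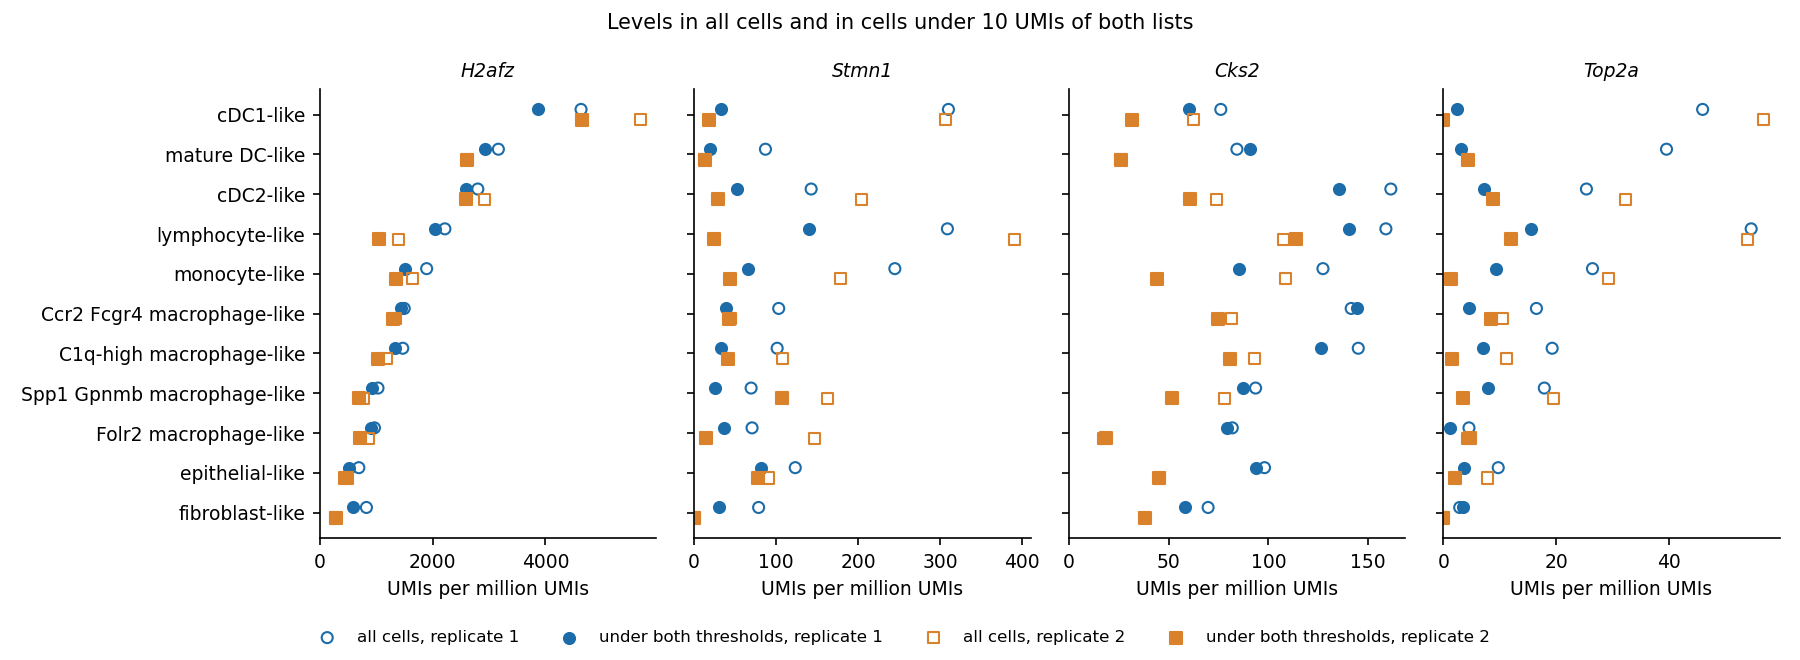
UMIs per 1000000 UMIs (CPM) of H2afz, Stmn1, Cks2 and Top2a in each class, in all cells (open points) and in cells under both thresholds (filled points), 1 point per library. H2afz stays at 3867 and 4657 in cDC1-like cells under the thresholds, whereas Stmn1 goes from 310 and 306 to 32.7 and 17.5; the filled points of Top2a, which counts toward the threshold, are low by that choice.

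Classes were compared by edgeR's quasi-likelihood test on UMIs summed per library and class, with the library as a block and Benjamini-Hochberg adjustment over 9049 genes. Of the 41 genes 37 were tested. A gene rose or fell if its adjusted p was under 0.05, and fold changes are log2 with their standard errors.

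cDC1-like cells exceeded cDC2-like cells in 7 replication genes, 4 broad genes and 2 division genes. In this comparison 13 of the 37 genes rose and none fell, where 4.41% of all genes rose and 6.71% fell. They were 7 of 14 S-phase genes (median log2 fold change over the 14, 1.17), 2 of 18 mitotic genes (median 0.73) and 4 of 5 broad genes (median 0.89); over all genes the median was -0.02. Rrm2 (48.5 and 32.6 against 10.3 and 10.5 CPM) rose by 1.88 (SE 0.42, edgeR adjusted p = 0.0020). Mcm6 rose by 1.59 (SE 0.42, edgeR adjusted p = 0.0099) and 2810417H13Rik by 1.27 (SE 0.32, edgeR adjusted p = 0.0057). Mcm7 (1.23), Gins2 (1.23), Mcm5 (1.22) and Tyms (1.09) rose too, all higher in 2 of 2 libraries. The mitotic genes that rose were Cdk1, by 1.97 (SE 0.49, edgeR adjusted p = 0.0055), and Cdca3, by 1.53 (SE 0.37, edgeR adjusted p = 0.0043). Hmgb2 rose by 1.46 (SE 0.22, edgeR adjusted p = 1.5e-05), H2afx by 1.09, Cks1b by 0.89 and H2afz by 0.80. Top2a (0.73, SE 0.31), Birc5 (0.74, SE 0.28), Mki67 (0.38, SE 0.37), Ccnb1 (1.78, SE 0.76), Pcna (0.37, SE 0.22), Stmn1 (0.75, SE 0.36) and Cks2 (-0.75, SE 0.25) did not pass. Whether the replication genes differed more than the mitotic ones was not tested. The count was 6 without the library block, 7 in DESeq2, 6 after thinning each cell and 26 when classes came from clusters.

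Against C1q-high cells, cDC1-like cells were higher across all lists. Of the 37 genes 24 rose and Cks2 fell, where 11.7% of all genes rose and 12.8% fell. Those that rose were 8 of 14 S-phase genes (median 1.21), 11 of 18 mitotic genes (median 1.31) and all 5 broad genes (median 1.89), against a median of -0.03 over all genes. The largest were Ccna2 (2.94, SE 0.57, edgeR adjusted p = 0.00015), 2810417H13Rik (2.51, SE 0.33, edgeR adjusted p = 4.2e-07) and Rrm2 (2.45, SE 0.41, edgeR adjusted p = 1.9e-05). Of the division genes, Spc24 rose by 2.00, Top2a by 1.83, Cdca3 by 1.76, Ube2c by 1.69, Birc5 by 1.37 and Mki67 by 1.07. Of the replication genes, Mcm5 and Hells rose by 1.60 each, Mcm7 by 1.43, Tyms by 1.41 and Mcm6 by 1.01. Of the broad genes, H2afx rose by 2.23, H2afz by 2.06, Cks1b by 1.89, Hmgb2 by 1.67 and Stmn1 by 1.63. Cks2 fell by 0.70 (SE 0.25, edgeR adjusted p = 0.036). Ccnb1 (0.22, SE 0.59) and Pcna (0.16, SE 0.21) did not pass. Thinning left 7 calls among the 11 genes it could test.

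cDC2-like cells differed less from C1q-high cells. Here 6 genes rose and none fell, where 12% of all genes rose and 10.9% fell. They were Ube2c (1.31, SE 0.31, edgeR adjusted p = 0.0017), H2afz (1.26, SE 0.22, edgeR adjusted p = 5.1e-05), 2810417H13Rik (1.24), H2afx (1.15), Top2a (1.10) and Cks1b (1.01). The medians were 0.14 over S-phase, 0.59 over mitotic and 1.01 over broad genes, against -0.02 over all genes. In this setting a share of 6 in 37 is not far from the share of all genes that rose. Rrm2 (0.57, SE 0.49), Mcm6 (-0.58, SE 0.42), Mcm5 (0.38, SE 0.40), Mki67 (0.69, SE 0.37), Ccnb1 (-1.56, SE 0.71) and Cks2 (0.05, SE 0.23) did not pass. Counts under other settings ran from 2 of 37 in DESeq2 (864 of 9049 genes rose) to 13 of 32 with a stricter gate (876 of 8257). Clusters gave 10 of 38 (1255 of 9612). The nearness to the share of all genes thus did not hold with the stricter gate.

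Monocyte-like cells exceeded C1q-high cells in 8 division genes and in 1 replication gene; this comparison was added after the values were seen. Of the 37 genes 11 rose and none fell, where 11.2% of all genes rose and 10.5% fell. They were 8 of 18 mitotic genes (median 0.98), 1 of 14 S-phase genes (median 0.42) and 2 of 5 broad genes (median 0.60), against -0.02 over all genes. Ube2c (118 and 116 against 20.3 and 24.1 CPM) rose by 2.42 (SE 0.29, edgeR adjusted p = 1.1e-07). Ccna2 rose by 2.13 (SE 0.61, edgeR adjusted p = 0.0096), Ccnb2 by 1.67 (SE 0.39, edgeR adjusted p = 0.0017), Cdca8 by 1.44 and Cdk1 by 1.33. Smc2 (1.14), Spc24 (1.11) and Birc5 (1.08) rose as well. 2810417H13Rik was the S-phase gene that rose, by 1.24 (SE 0.35, edgeR adjusted p = 0.0095), and Cks1b (1.19) and Stmn1 (1.03) the broad ones. Rrm2 (0.77, SE 0.49), Mcm5 (0.93, SE 0.38), Mcm6 (-0.06, SE 0.40), Pcna (-0.36, SE 0.22), Top2a (0.89, SE 0.34), Mki67 (0.71, SE 0.37), Ccnb1 (0.25, SE 0.57) and Cks2 (0.02, SE 0.23) did not pass. All comparisons against C1q-high cells share the same C1q-high sums. The count was 5 in DESeq2, 6 without the library block and 21 with clusters.

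**Figure D5:**
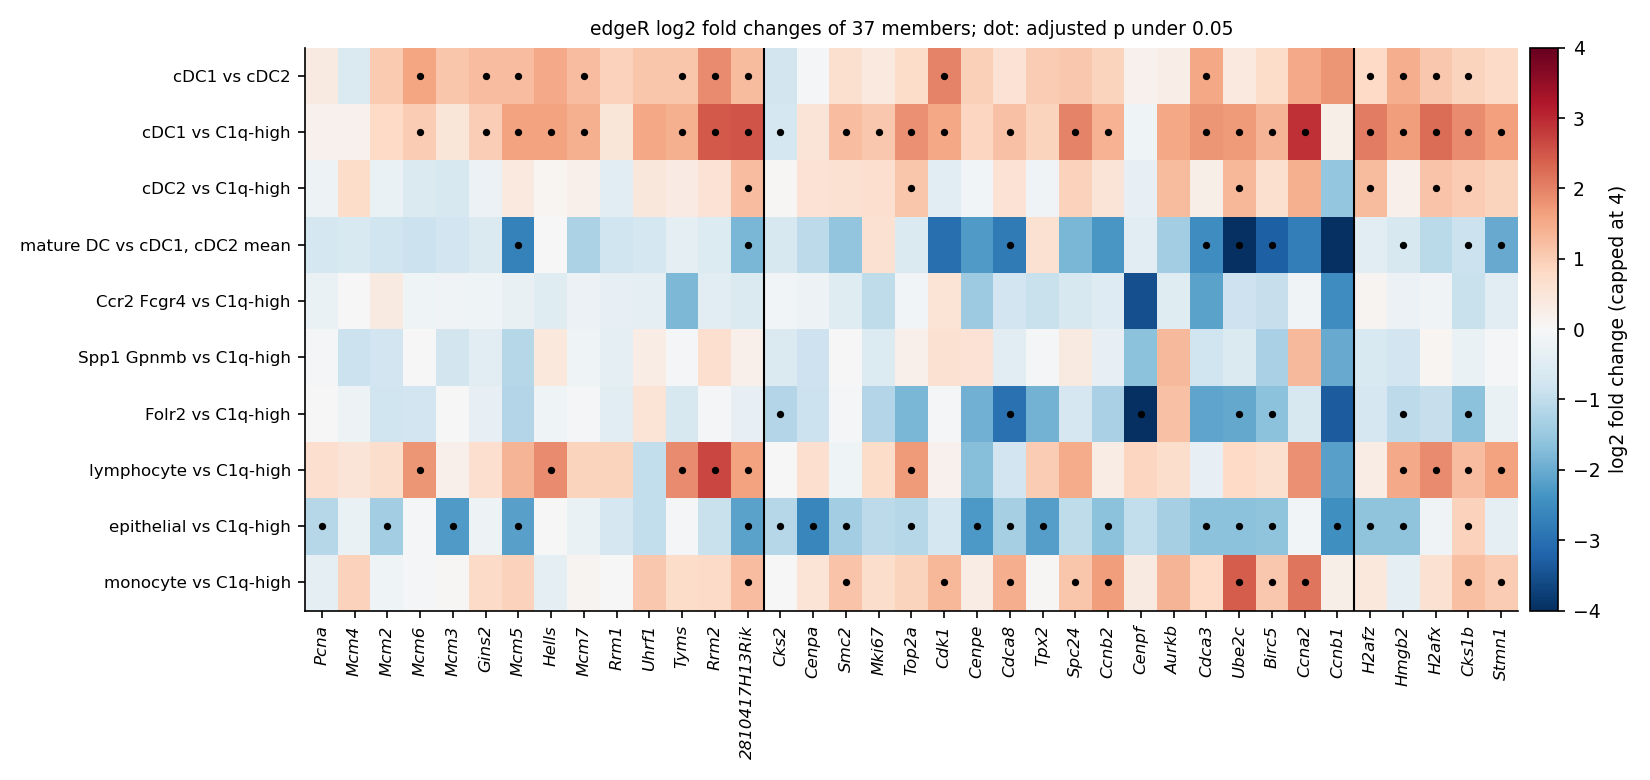
Log2 fold changes of the 37 tested genes (columns, by list) in the 10 comparisons of classes (rows), with the colour scale capped at 4 either way. A dot marks an adjusted p under 0.05. The row of cDC1-like against C1q-high cells holds 25 dots, and the rows of Ccr2 Fcgr4 and Spp1 Gpnmb cells hold none.

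Mature DC-like cells, the Ccr7 and Fscn1 class, were lower than the mean of cDC1-like and cDC2-like cells in 9 of the 37 genes and higher in none, where 5.57% of all genes fell and 7.39% rose. The 9 were 2 of 14 S-phase, 4 of 18 mitotic and 3 of 5 broad genes. The median over mitotic genes was -2.06, or -1.71 with Ccnb1, which had no UMI in the class, at its bound; it was -0.73 over S-phase and -0.86 over broad genes, against -0.13 over all genes. Birc5 (4 UMIs against 295) fell by 3.26 (SE 0.59, edgeR adjusted p = 0.00014). Ube2c had 2 UMIs against 273, a pooled ratio of 17.8 in favour of the dendritic classes (exact 95% interval 4.89 to 148). Cdca8 (2 UMIs against 112, ratio 7.32, 1.98 to 61.2), Cdca3 (3 against 142, ratio 6.18, 2.07 to 30.3) and Mcm5 (2 against 107, ratio 6.99, 1.89 to 58.5) passed the test from as few. Stmn1 fell by 2.03 (SE 0.47, edgeR adjusted p = 0.0027), 2810417H13Rik by 1.83 (SE 0.48, edgeR adjusted p = 0.0080), Cks1b by 0.86 (SE 0.29, edgeR adjusted p = 0.0498) and Hmgb2 by 0.64 (SE 0.22, edgeR adjusted p = 0.0497). Hmgb2 was at 342 and 252 CPM in mature DC-like, 294 and 251 in cDC2-like and 712 and 818 in cDC1-like cells. It thus lay below cDC1-like cells but not clearly below cDC2-like cells. H2afz (-0.43, SE 0.19), Pcna (-0.70, SE 0.29), Top2a (-0.59, SE 0.42), Rrm2 (-0.54, SE 0.60), Mcm6 (-0.85, SE 0.66), Tyms (-0.36, SE 0.45), Cks2 (-0.63, SE 0.31) and Mki67 (0.62, SE 0.42) did not pass. Per-library folds of the 9 agreed in sign and were more than 1.5 times apart in 7. The count was 3 in DESeq2 and 22 with clusters.

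Lymphocyte-like cells exceeded C1q-high cells in 10 of the 37 genes and were lower in none, where 8.58% of all genes rose and 11.2% fell. They were 5 of 14 S-phase genes (median 0.89), 1 of 18 mitotic genes (median 0.67) and 4 of 5 broad genes (median 1.52), against -0.12 over all genes. Rrm2 rose by 2.66 (SE 0.54, edgeR adjusted p = 0.00036), Hells by 1.91, Tyms by 1.88 (SE 0.41, edgeR adjusted p = 0.00069), Mcm6 by 1.77 (SE 0.45, edgeR adjusted p = 0.0040) and 2810417H13Rik by 1.60. Top2a was the mitotic gene, at 1.71 (SE 0.45, edgeR adjusted p = 0.0051). H2afx rose by 1.89, Stmn1 by 1.61, Hmgb2 by 1.52 and Cks1b by 1.23. H2afz (0.29, SE 0.22), Pcna (0.68, SE 0.25), Mcm5 (1.36, SE 0.54), Birc5 (0.64, SE 0.41), Mki67 (0.72, SE 0.57) and Cks2 (0.03, SE 0.29) did not pass. The class was the shallowest tested, with median depths of 3489 and 3725 UMIs.

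Folr2 macrophage-like cells, which carry genes of tissue-resident macrophages, were lower than C1q-high cells in 7 genes and higher in none, where 4.41% of all genes fell and 4.55% rose (8.96% called in all). They were 5 of 18 mitotic genes (median -1.47, the same with Cenpf at its bound) and 2 of 5 broad genes, and 0 of 14 S-phase genes (median -0.26), against -0.05 over all genes. Cenpf had 0 UMIs against 41, at least 3.77-fold lower against a floor of 3 counts over the class. Cdca8 had 2 UMIs against 56, a pooled ratio of 7.72 (exact 95% interval 2.04 to 65.3). Ube2c fell by 2.04 (SE 0.62, edgeR adjusted p = 0.034), Birc5 by 1.65, Cks1b by 1.63 (SE 0.40, edgeR adjusted p = 0.0057), Cks2 by 1.18 and Hmgb2 by 1.05. Top2a (-1.83, SE 0.64) and Mki67 (-1.16, SE 0.61) did not pass, nor did Pcna (-0.01, SE 0.24) or H2afz (-0.67, SE 0.22). With classes from clusters 1 call was left, and Ube2c (1.02), Birc5 (0.27) and Cdca8 (0.07) changed sign.

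Ccr2 Fcgr4 and Spp1 Gpnmb cells each had 0 genes called against C1q-high cells in edgeR's quasi-likelihood test, where 1.58% and 2.61% of all genes were called, and 0 in DESeq2. At an unadjusted p under 0.05 there were 6 and 7 of the 37, where 10.3% and 11.2% of all genes passed. With classes from the marker gate few genes of any kind differed, 1.07% rising and 0.508% falling in Ccr2 Fcgr4 cells and 1.73% and 0.873% in Spp1 Gpnmb cells. This depended on the gate. With classes from clusters 390 of 9612 genes rose and 509 fell in Spp1 Gpnmb cells, and 224 rose and 142 fell in Ccr2 Fcgr4 cells. Of the 38 cell cycle genes tested there, 2 rose and 1 fell in Spp1 Gpnmb cells and 0 were called in Ccr2 Fcgr4 cells. Medians over the 37 genes were -0.45 and -0.27, against -0.03 over all genes in both.

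Epithelial-like cells were lower than C1q-high cells in 19 genes and higher in Cks1b, where 20.8% of all genes fell and 23.8% rose. They were 5 of 14 S-phase genes (median -0.77), 12 of 18 mitotic genes (median -1.37) and 2 of 5 broad genes (median -0.36), against 0.08 over all genes. Cenpa fell by 2.61 (SE 0.37, edgeR adjusted p = 6.5e-07), Ccnb1 by 2.44 (SE 0.82, edgeR adjusted p = 0.016), Mcm3 by 2.27 (SE 0.45, edgeR adjusted p = 9.7e-05), Mcm5 by 2.16 and 2810417H13Rik by 2.15. Cenpe and Tpx2 had 3 UMIs each in the class, against 28 and 24, pooled ratios of 4.04 (exact 95% interval 1.25 to 20.7) and 3.46 (1.05 to 17.9). H2afz fell by 1.60, Hmgb2 by 1.61, Birc5 by 1.60, Pcna by 1.13, Cks2 by 1.13 and Top2a by 1.13, while Cks1b rose by 0.93 (SE 0.24, edgeR adjusted p = 0.0021). Rrm2 (-0.89, SE 0.62), Mcm6 (-0.05, SE 0.40), Tyms (-0.07, SE 0.37), Mki67 (-1.06, SE 0.48) and Stmn1 (-0.36, SE 0.39) did not pass. Without the TMM scaling the median of all genes moved to 0.49 and 12 genes were called, and with a stricter gate Top2a stood at 0.24.

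The other genes of the cycle came from 4 lists, and many were too low to test, most of all in the mitotic list: 17 of 28 further replication genes, 13 of 41 further mitotic genes, 14 of 20 G1 genes and 11 of 13 genes of CDK inhibition and exit were tested. In cDC1-like against cDC2-like cells 3 replication genes rose, Asf1b (2.06, SE 0.61), Fen1 (1.60, SE 0.41) and Dut (1.37, SE 0.31), and 2 mitotic genes, Nusap1 (1.77, SE 0.55) and Tmpo (1.67, SE 0.33). Ccnd2, a D-type cyclin, was at 32.9 and 18.1 CPM in cDC1-like and 129 and 72.4 in cDC2-like cells and fell by 1.99 (SE 0.29, edgeR adjusted p = 9.6e-06). The CDK inhibitor Cdkn1a (p21) was at 204 and 94.1 against 336 and 328 and fell by 1.22 (SE 0.25, edgeR adjusted p = 0.0010), and Gadd45b fell by 1.91 (SE 0.25). Lin54, a DREAM subunit, fell by 1.21, and E2f8 passed from 5 and 9 UMIs against 0 and 1. The G1 list thus had 1 of 14 genes higher and 2 lower, and the inhibitor list 2 of 11 lower, where 4.41% of all genes rose and 6.71% fell.

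The D-type cyclin Ccnd3 separated cDC1-like and cDC2-like cells from C1q-high cells by a larger fold than any of the 37 genes tested. Ccnd3 was at 64.1 and 111 CPM in cDC1-like, 88.2 and 84.7 in cDC2-like and 7.49 and 7.40 in C1q-high cells; it rose by 3.57 (SE 0.31, edgeR adjusted p = 1.5e-10) in cDC1-like and by 3.64 (SE 0.30, edgeR adjusted p = 6.5e-11) in cDC2-like cells. It also rose in lymphocyte-like cells, by 3.57 (SE 0.39), and in epithelial-like cells, by 1.98 (SE 0.35). Ccnd2 rose by 2.35 (SE 0.27) in cDC2-like cells and Ccnd1 by 1.61 (SE 0.25) in cDC1-like cells. In cDC1-like against C1q-high cells 5 of 17 further replication genes, 6 of 13 further mitotic genes, 2 of 14 G1 genes and 3 of 11 inhibitor genes rose, where 11.7% of all genes rose. The inhibitor genes Cdkn1a (fell by 1.33, SE 0.25) and Gadd45b (fell by 1.23, SE 0.25) fell, where 12.8% of all genes fell. The G1 count is near the share of all genes. In cDC2-like cells the counts that rose were 0, 2, 4 and 3 of the same lists, where 12% of all genes rose. Those that fell were Cdt1 (by 1.48), the tubulin gene Tubb4b (fell by 0.68) and Gadd45a (fell by 1.57), where 10.9% of all genes fell. The mitotic count that rose is near the share of all genes, and so are the single genes that fell. In monocyte-like cells Cdt1, the licensing factor of replication origins, was at 4.66 and 8.37 against 40.7 and 27.8 and fell by 2.41 (SE 0.43, edgeR adjusted p = 6.1e-05). Cdt1 also fell in epithelial-like cells, by 2.73 (SE 0.45), so its fall is not particular to monocyte-like cells. It did not pass in lymphocyte-like cells (-0.13, SE 0.47) or in the other macrophage-like classes. In monocyte-like cells 3 of 13 further mitotic and 4 of 14 G1 genes rose, Ccnd3 by 1.98, and the antiproliferative gene Btg1 rose by 1.72 (SE 0.20), where 11.2% of all genes rose. The replication factor C subunit Rfc2 fell by 0.91 (SE 0.26), the lamin gene Lmnb1 by 0.65 (SE 0.21), the G1 kinase gene Cdk6 by 1.19 (SE 0.34), Gadd45a by 1.08 (SE 0.36) and Gadd45b by 0.66 (SE 0.24), where 10.5% of all genes fell.

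In mature DC-like cells the exit genes moved in both directions. Gadd45b was at 1498 and 1283 CPM, against 609 and 460 in the pooled conventional dendritic classes, and rose by 1.80 (SE 0.21, edgeR adjusted p = 7.1e-08). Ccnd2 rose by 2.05 (SE 0.25, edgeR adjusted p = 1.9e-07), from 78.8 and 54.0 to 279 and 135, while Ccnd3 fell by 1.35 and Ccnd1 and Cdk4 also fell. Cdkn1a rose by 0.68 and Cdkn2d fell by 2.11 (SE 0.46, edgeR adjusted p = 0.0015). The reference is the mean of 2 classes that differed in some of these genes. In cDC1-like against cDC2-like cells Cdkn1a stood at -1.22, Gadd45b at -1.91 and Ccnd2 at -1.99. Mature DC-like cells were not tested against cDC2-like cells alone, so a rise of Cdkn1a over that class is not shown. Cdkn2b had 6 and 3 UMIs in the class against 1 and 0 in the others. Lymphocyte-like cells had 7 of 17 further replication genes higher than C1q-high cells, where 8.58% of all genes rose, among them Atad2 (2.56, SE 0.49) and Dut (2.32, SE 0.37), and none lower.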

How the data were processed

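The deposited files hold raw UMI counts per gene for 737280 barcodes in each of 2 libraries (10x Chromium 3′ v2), which the authors produced in Cell Ranger (version 2.2.0; mm10 as genome), as the submitters' processing notes record. The annotation release is not given in the sources used here. Cells were barcodes past the Cell Ranger 2 rule (2111.68 and 1904.91 UMIs), with at least 200 genes, at most 10% mitochondrial UMIs, and without the cells that Scrublet in scanpy 1.11.5 scored highest (30 and 12). Of past barcodes 83 and 90 were left out for mitochondrial UMIs and 1 for few genes. Cells held 72.9% and 71.8% of all UMIs. A cell took the class of its highest mean marker score (131 markers written, 129 found, at least 3 detected), and the 11 classes of 20 or more cells per library entered the test: edgeR 4.0.16 on 22 sums, TMM, a block for the library (all classes of it were captured together), 10 residual degrees of freedom, 9154 genes past the filter on low counts and 105 marker genes left out.

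The 41 genes and all lists were chosen with earlier results of these data known. Named are up to 5 called genes of largest fold per list and direction, 15 fixed genes, and up to 3 called genes of each other list. For the other lists the rule was followed only in part. Their called genes are not named for Ccr2 Fcgr4 and Folr2 cells and, apart from Ccnd3, for epithelial-like cells. Some are also left out in further comparisons, so a gene absent from the text may still have been called. Values outside this rule were chosen after they were seen. A gene of the other replication list that the rule would name is not reported here. A simulation gave every class and library the same expected level of a gene, with changes added only in cDC1-like cells. Over 7808 genes, the test of cDC1-like against cDC2-like cells recovered 5 of 60 genes changed 1.5-fold and 15 of 54 changed 2-fold. It recovered 40 of 55 changed 4-fold, with 5 false calls of 65. Changed genes lost to the filter on low counts are left out of these shares. The simulated counts held no other class differences and no library effect, so the shares do not measure recovery in these data. Alternatives were DESeq2 1.42.0, no TMM, no filter, no block, at least 1000 UMIs, no doublet removal, a stricter gate, Leiden clusters (17) and cells thinned to 1900 UMIs. Genes such as Hmgb2, H2afz, Stmn1 and Cks1b have processed pseudogenes, and how their reads were shared out is not recorded. Gene positions are from GENCODE on GRCm38 and promoters from RefSeq GRCm38.p6.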

Additional observations from a re-analysis of the deposited data

Results flagged for a closer look

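Cells that the markers placed in no class were used in no comparison, yet some were high for a list: 18 of 433 (4.16%, median depth 8474 UMIs) in replicate 1 and 18 of 227 (7.93%, median depth 14482.5 UMIs) in replicate 2. Of these, 6 and 4 were high for S phase only, 6 and 9 for both lists and 6 and 5 for mitosis only. The S-phase list stood at 2.79 and 3.77 per 10000 UMIs in these cells and the mitotic list at 4.68 and 5.74, between C1q-high and cDC1-like cells in replicate 2.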

How the results depend on the processing

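Counts of called genes changed with the settings below. Without the replicate block the counts were 6 (cDC1-like against cDC2-like), 2 (Folr2) and 6 (monocyte-like), and the other counts stayed within 1.5 times. DESeq2 called 7 (cDC1-like against cDC2-like), 2 (cDC2-like), 3 (mature DC-like), 4 (Folr2), 12 (epithelial-like) and 5 (monocyte-like). Clusters in place of the gate gave 26 (cDC1-like against cDC2-like), 10 (cDC2-like), 22 (mature DC-like), 3 (Spp1 Gpnmb), 1 (Folr2), 13 (epithelial-like) and 21 (monocyte-like). Thinning, which left 11 genes testable, gave 6, 7, 3, 3, 3, 4, 3 and 3 for cDC1-like against cDC2-like and against C1q-high, cDC2-like, mature DC-like, Folr2, lymphocyte-like, epithelial-like and monocyte-like cells. A stricter gate gave 13 (cDC2-like) and 10 (epithelial-like) and could not be fitted for Folr2 and Spp1 Gpnmb cells. No TMM factor gave 12 (epithelial-like). No filter gave 15 (mature DC-like), 1 (Ccr2 Fcgr4) and 3 (Spp1 Gpnmb), and at least 1000 UMIs gave 1 (Ccr2 Fcgr4). The causes were not tested.

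Of 101 called values, DESeq2 kept 58, no block 72, no TMM 86, clusters 86, no doublet removal 95, at least 1000 UMIs 99 and no filter 101. Thinning, which makes depth equal, kept 27 of the 49 called values it could test and lost 21. The stricter gate kept 75 of 91. The called values that changed sign were Ube2c (1.02), Cdca8 (0.073) and Birc5 (0.27) in Folr2 cells with clusters, Top2a (0.24) in epithelial-like cells with the stricter gate, and Cks1b (0.29) in mature DC-like cells after thinning. With 1 library left there are no residual degrees of freedom and so no test. The fold in each library kept its sign in 101 of 101 values, and the libraries were over 1.5 times apart in 46.

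The ratio of cDC1-like to C1q-high cells ranged from 1.95 to 2.27 for the S-phase list and from 1.42 to 2.26 for the mitotic list with either library left out. Clusters gave 2.40 and 2.46, and the stricter gate 2.54 and the list without Cks2 and Cenpa 2.60 for the mitotic list. The cDC1-like share of cells with at least 3 mitotic UMIs was 15.8% and ranged from 14.9% to 16.8% over libraries; it was 19.98% at 2 UMIs, 7.10% at 5, 39.4% without thinning, 13.7% at a mitochondrial limit of 5% and 11.1% without Cks2 and Cenpa. For S phase it was 13.96%, from 13.5% to 14.4%, and 18.8% at 2 UMIs, 7.78% at 5 and 34.5% without thinning.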
